A study of Gallus gallus with 6 samples.

Results

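The genes described here are splicing factors and RNA helicases of bursal lymphocytes from the chicken embryo. They were chosen by symbol (SRSF, SRRM, HNRNP, SF1, SF3A, SF3B, U2AF, PRPF, SNRP, SNRNP, LSM, DDX, DHX, RBM, CELF, MBNL, QKI, ELAVL, PTBP, TIA1, TRA2, CWC, SLU7, SYF2 and CRNKL1 families) from the deposited table of genes that the study called as different between embryonic day (ED) 16 and ED19. This gave 63 genes of the 19219 in the count table. The deposited comparison table holds 8469 genes, 6458 of them with a symbol, and it names no gene that was not called. Each of the 63 genes was therefore chosen because its counts differed between the stages, so the differences between ED16 and ED19 below are a description and carry no test. Genes of the same families that were not called, or that were called but carry no symbol, cannot be found by name in these files and were not analysed here.

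Pre-mRNA splicing is carried out by the spliceosome, a machine of small nuclear ribonucleoproteins (snRNPs). Each snRNP carries a ring of Sm or LSM proteins on its RNA, the U1 and U2 particles recognize the splice site and the branch site, and DEAH-box and DEAD-box helicases drive the remodeling steps. SR proteins and hnRNPs bind exons and introns and decide, often against each other, which sites are used, and CELF, MBNL, ELAVL and PTB proteins add cell type-specific control. B-lymphocytes use this machinery for, among others, the alternative 3' ends and exons of immunoglobulin heavy-chain transcripts.

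The bursa of Fabricius is the site of B-cell development in birds. Lymphocytes were isolated on a Histopaque gradient from pooled bursas of Hy-Line W-36 commercial layer embryos, with 52 to 55 bursas in each pool per the labels, and no sorting step is described in the labels. There were 3 pools at ED16 (libraries ED16_1 to ED16_3) and 3 at ED19 (ED19_4 to ED19_6), with no treatment given in the labels, and poly-A RNA was sequenced. Library totals ran from 27087661 to 34614652 counts. With 3 counts as the floor, the smallest share of a library that could be seen was 8.67e-06% to 1.11e-05%, a limit that covers counting error only. RPKM values are the count of a gene divided by its length and by the library's total, as the authors computed them. Log2 fold changes are ED16 over ED19 from edgeR's fit across all genes, so a positive value is higher at ED16, and each has its standard error (SE).

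Marker genes of several cell types were looked up by symbol. Symbols exist for called genes only, and not for all of these. A marker that did not differ between the stages, or that differed but has no symbol, could not be found. That the markers found differ is thus set by this choice, and they are a description and no check of the label of the cells. Of 14 listed B-cell markers, 5 were found by symbol (BLNK, RAG2, SYK, BACH2 and TNFRSF13C), and all 5 were higher at ED19. Their RPKM summed to 156 to 185 in ED16 libraries and 347 to 511 at ED19. Most markers of other cells were higher at ED16. The 9 T-cell markers found summed to 296 to 392 RPKM at ED16 and 138 to 230 at ED19, and the 6 erythroid ones to 4009 to 5894 and 154 to 272. CD3D made up most of the T-cell sums, with a mean RPKM of 234 at ED16 and 149 at ED19 (log2 fold change 0.67). The median log2 fold change of the 9 T-cell markers was 2.69. The 8 granulocyte and macrophage markers summed to 218 to 243 at ED16 and 284 to 290 at ED19, although 7 of them were higher at ED16. SPI1, the exception, made up most of these sums, with a mean RPKM of 143 at ED16 and 271 at ED19. The 8 fibroblast markers summed to 18.9 to 22.4 and 3.97 to 5.76, the 5 smooth muscle markers to 11.1 to 17.7 and 2.08 to 3.58, and the 5 kidney markers to 62.1 to 185 and 0.213 to 0.343. The 6 endothelial markers had sums that overlapped (5.33 to 7.42 and 3.92 to 13.4), although 5 of them were higher at ED16. The exception was PECAM1, with a mean RPKM of 2.19 at ED16 and 8.48 at ED19. PDGFRB, TWIST1, KDR, VWF and AGXT, from the fibroblast, endothelial and kidney lists, had no counts in any ED19 library. Whether the cell makeup differed between the stages, and its part in the values below, was not tested. In bulk RNA fewer cells of a type and less RNA per cell cannot be told apart.

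More of the splicing factors and helicases were higher at ED19 than at ED16. Of the 63 genes, 37 had more normalized counts at ED19 and 26 at ED16, and 48.6% of all tested genes had a log2 fold change below 0. The median log2 fold change of the 61 that had enough counts to be tested was -0.81, against 0.05 over all 13923 tested genes. This gap is not like for like, because all tested genes include those not called and the 61 hold no value near 0. All 61 passed an adjusted p-value of 0.05 in edgeR, where 66.4% of all tested genes did (35.6% higher at ED16 and 30.8% higher at ED19), and the choice of the genes sets this count. No overlap between the stages was seen in any of the 63 genes, which the choice of the genes also sets. Among all tested genes 71.5% did not overlap, 38.4% of them higher at ED16 and 33.1% at ED19 as shares of all tested genes. Log2 fold changes ran from -3.96 to -0.63 in the genes higher at ED19 and from 0.64 upward in the others. By role, most helicases, the factors of spliceosome assembly and catalysis, and the widely expressed regulators were higher at ED19. The Sm and LSM ring proteins, some U2 subunits and the CELF and ELAVL paralogs known from neurons were higher at ED16. LSM6, SNRNP27 and SNRPF changed side when the libraries were recentred with a length correction. Recentring moved the median of all tested genes from 0.05 to -0.39, so it shifted the zero for all genes and not for these alone.

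**Figure D1:**
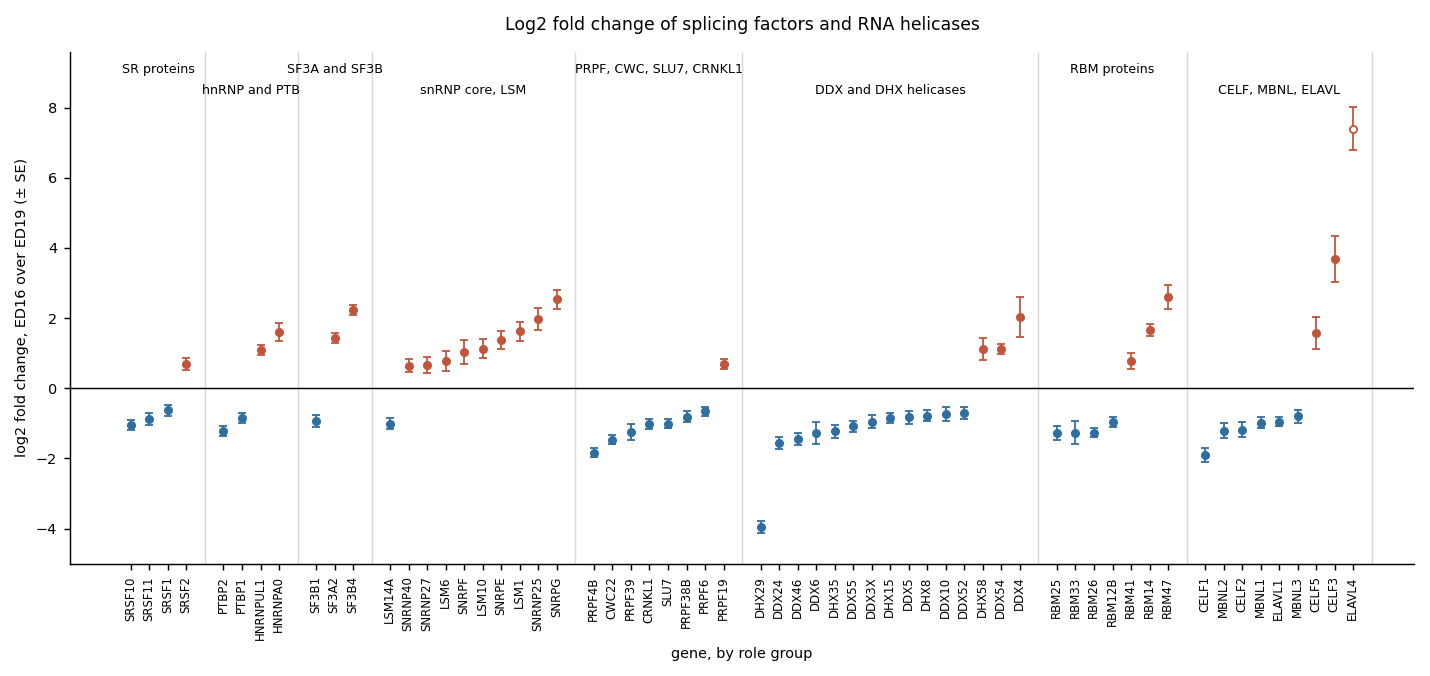
Log2 fold change, ED16 over ED19, of 60 of the 61 tested genes by role group (x axis, gene; bars, SE of edgeR's fit from 3 libraries a stage). Values above 0 (red) are higher at ED16 and values below 0 (blue) higher at ED19. Of 15 helicases 12 lie below 0 and of 10 snRNP and LSM genes 9 lie above it. Of these 9, LSM6, SNRPF and SNRNP27 changed side when the libraries were also recentred, as did SRSF2 and PRPF19. Recentring moved the median of all tested genes to -0.39. The open point is ELAVL4, whose size is uncertain because it had 1 count at ED19.

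The mRNAs of the snRNP ring proteins were more abundant at ED16. Of 10 snRNP and LSM genes, 9 were higher at ED16 and 1, LSM14A, at ED19 (median log2 fold change 1.08). SNRPG, a subunit of the Sm ring (ENSGALG00000028409), had an RPKM of 769, 624 and 812 at ED16 and 117, 101 and 170 at ED19. It was the most abundant of the 63 genes at ED16 per unit of length and ranked 15 at ED19. SNRPG was 5.80-fold higher at ED16 (log2 fold change 2.54, SE 0.27). This log2 value was 1.75 with a correction for gene length and 1.30 when the libraries were also recentred. SNRPE, its partner in the ring, had an RPKM of 402, 392 and 513 at ED16 and 142, 144 and 226 at ED19 (log2 fold change 1.37, SE 0.26), and no longer passed edgeR's threshold after recentring. SNRPF, a further Sm protein, had an RPKM of 390, 357 and 522 at ED16 and 159, 155 and 311 at ED19. Its log2 fold change of 1.04 (SE 0.34) depended on the scale and became -0.17 with a length correction that also recentred the libraries.

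The 3 Sm proteins belong to 1 ring but did not differ between the stages by the same amount. The RPKM ratio of SNRPG to SNRPE was 1.91, 1.59 and 1.58 in the ED16 libraries and 0.819, 0.696 and 0.749 in the ED19 libraries. SNRPG was thus the more abundant mRNA per unit of length in every ED16 library and the less abundant in every ED19 library. The ratio of SNRPE to SNRPF averaged 1.04 ± 0.0583 at ED16 (SD, n = 3) and 0.853 ± 0.109 at ED19.

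The LSM proteins form related rings on U6 RNA and on mRNA to be degraded. LSM1, which marks the cytoplasmic ring of mRNA decay, had an RPKM of 60.2, 45.9 and 61.9 at ED16 and 17.7, 13.8 and 23.9 at ED19 (log2 fold change 1.63, SE 0.27, and 1.04 with the length correction). LSM6, which is shared by the rings of decay and of U6, was closer between the stages at 71.3 ± 9.65 and 42.4 ± 14.6 (SD, n = 3). Its log2 fold change was 0.77 (SE 0.29), and LSM6 was on the other side of 0 after recentring. LSM10, a subunit of the U7 snRNP that trims histone mRNA, had counts of 437, 320 and 257 at ED16 and 157, 112 and 164 at ED19 (log2 fold change 1.13, SE 0.28, and 0.50 with the length correction). LSM14A, a P-body protein with an LSM domain that belongs to no snRNP, went the other way. Its RPKM was 65.3, 77.2 and 78.8 in the ED16 libraries and 148, 158 and 153 in the ED19 libraries (log2 fold change -1.01, SE 0.15).

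Of the genes named SNRNP, which encode proteins of single snRNPs, SNRNP25 differed most. SNRNP25, of the U11/U12 particle that splices the rare U12-type introns, had an RPKM of 23.5, 17.1 and 27.8 at ED16 and 5.91, 4.07 and 7.79 at ED19 (log2 fold change 1.98, SE 0.32, and 1.2 after recentring). SNRNP40, of the U5 snRNP, had an RPKM of 139, 137 and 156 at ED16 and 87.6, 88.6 and 107 at ED19 (log2 fold change 0.64, SE 0.18), and was at 0.12 and not called after recentring. SNRNP27, of the tri-snRNP, had a log2 fold change of 0.67 (SE 0.23) that also changed side after recentring. All the snRNP and LSM genes but LSM14A are at most 1589 bases long.

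**Figure D2:**
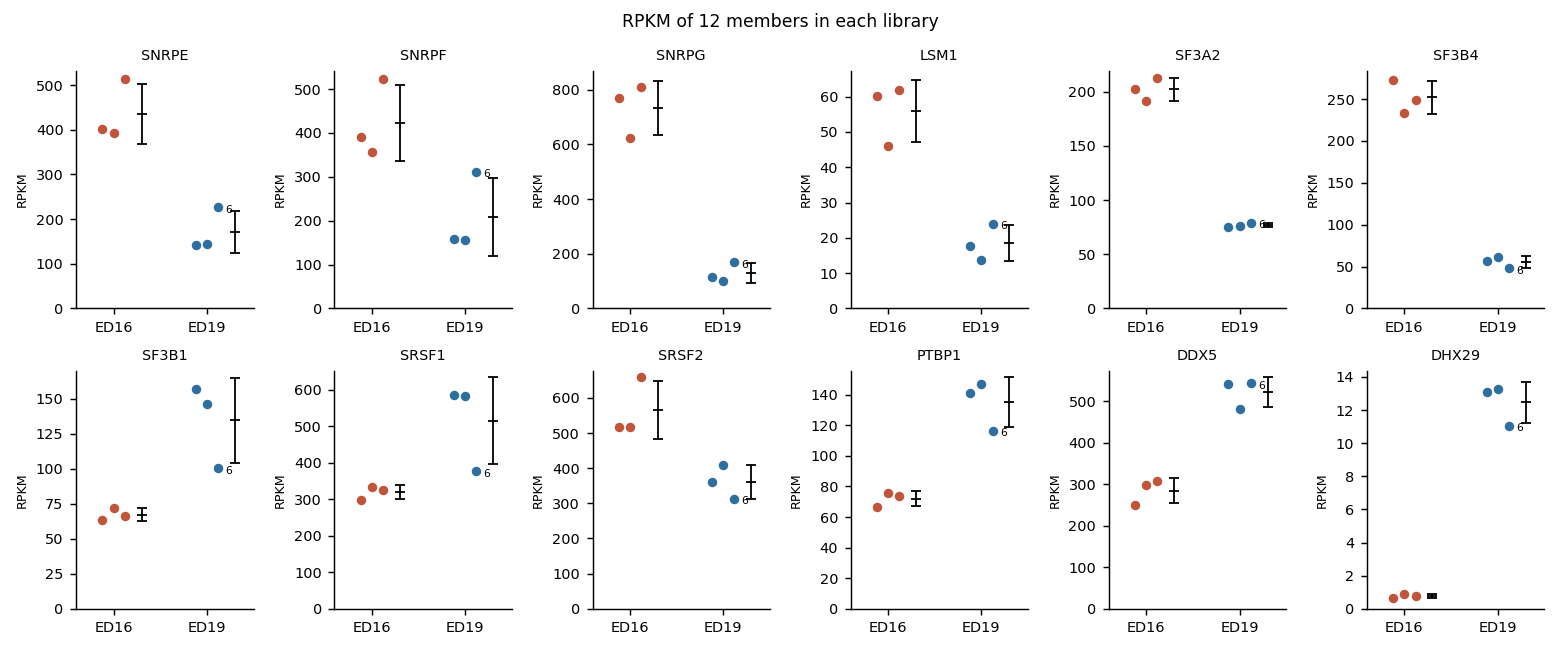
RPKM of 12 genes in each library (y axis from 0; points, libraries; black mark and bar, mean ± SD of 3; 6 marks library ED19_6). SNRPE, SNRPF, SNRPG, LSM1, SF3A2, SF3B4 and SRSF2 are higher in every ED16 library, and SF3B1, SRSF1, PTBP1, DDX5 and DHX29 in every ED19 library. After recentring SRSF2 and SNRPF had a log2 fold change below 0, as did the median of all tested genes.

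The U2 snRNP subunits that bind the branch site split. SF3B1, the large scaffold that clamps the branch site, had an RPKM of 63.6, 72.2 and 66.2 at ED16 and 157, 146 and 100.3 at ED19 (log2 fold change -0.94, SE 0.17). SF3B4, a small subunit that binds the pre-mRNA next to it (ENSGALG00000013352), had an RPKM of 273, 234 and 249 at ED16 and 57.1, 62.0 and 48.0 at ED19. Its log2 fold change was 2.23 (SE 0.15), or 4.70-fold higher at ED16, and stayed at 2.12 with the length correction. SF3A2, of the partner complex SF3A, had an RPKM of 203, 191 and 212 at ED16 and 75.6, 76.1 and 78.8 at ED19 (log2 fold change 1.44, SE 0.15).

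The order of these subunits of one particle by level thus differed between the stages. The RPKM ratio of SF3B4 to SF3B1 was 4.29, 3.24 and 3.76 in the ED16 libraries and 0.363, 0.424 and 0.478 in the ED19 libraries. The mean ratio was 8.93 times higher at ED16. The ratio of SF3A2 to SF3B1 was 3.19, 2.65 and 3.21 in the ED16 libraries and 0.480, 0.520 and 0.785 in the ED19 libraries. The ratios of the stages did not overlap for either pair. They compare mRNA per unit of length and not protein.

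The SR proteins, which bind exonic enhancers and recruit the spliceosome, were mostly higher at ED19. SRSF1, the prototype of the family, had an RPKM of 298, 333 and 326 at ED16 and 585, 582 and 377 at ED19, so that ED19_6 lay between the other ED19 libraries and ED16. Its log2 fold change was -0.63 (SE 0.16), the smallest of all 61. SRSF10, which represses splicing when it loses its phosphates, had an RPKM of 50.0, 54.3 and 56.5 at ED16 and 121, 121 and 103 at ED19 (log2 fold change -1.05, SE 0.13). SRSF11 had an RPKM of 76.1, 82.3 and 82.0 at ED16 and 153, 135 and 165 at ED19 (log2 fold change -0.88, SE 0.16). SRSF2 (SC35) was the exception, with an RPKM of 518, 518 and 659 at ED16 and 361, 410 and 313 at ED19. Its log2 fold change of 0.70 (SE 0.17) was 0.07 with the length correction and -0.35 when the libraries were also recentred. The ratio of SRSF2 to SRSF1 was 1.74, 1.56 and 2.02 in the ED16 libraries and 0.618, 0.705 and 0.831 in the ED19 libraries. These genes have lengths of 708 and 818 bases, so the ratio sets side by side genes of nearly the same length.

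The hnRNPs and PTB proteins, which mostly repress splice sites, were 4 of the genes. PTBP1 and PTBP2 were higher at ED19, and HNRNPA0 and HNRNPUL1 at ED16. Family members that were not called or that carry other symbols are not among them, so no direction of the family is given. PTBP1, which binds polypyrimidine tracts and skips exons, had an RPKM of 66.5, 75.5 and 73.7 at ED16 and 141, 147 and 116 at ED19 (log2 fold change -0.86, SE 0.14). PTBP2, its paralog best known from neurons, had an RPKM of 2.92, 3.32 and 3.33 at ED16 and 8.20, 7.58 and 7.19 at ED19 (log2 fold change -1.21, SE 0.14). PTBP1 was 22.6 ± 0.356 times as abundant as PTBP2 at ED16 (SD, n = 3) and 17.6 ± 1.65 times at ED19. HNRNPA0, which binds AU-rich elements in mRNA, had an RPKM of 271, 256 and 439 at ED16 and 102, 110 and 117 at ED19. ED16_3 stood well above the other ED16 libraries, and the log2 fold change was 1.60 (SE 0.26). HNRNPUL1 had an RPKM of 148, 139 and 142 at ED16 and 77.7, 80.8 and 51.3 at ED19 (log2 fold change 1.09, SE 0.16).

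Factors that assemble and activate the spliceosome were higher at ED19 in 8 of 9 genes, and the median log2 fold change was -1.01. The largest difference was in PRPF4B, a kinase that phosphorylates tri-snRNP proteins. Its RPKM was 16.2, 18.7 and 15.8 in the ED16 libraries and 71.4, 64.2 and 52.1 in the ED19 libraries (log2 fold change -1.84, SE 0.14). CWC22, which hands the exon junction complex to spliced exons, had an RPKM of 9.23, 10.8 and 9.68 at ED16 and 28.7, 27.6 and 27.9 at ED19 (log2 fold change -1.46, SE 0.14). PRPF39, a U1-associated protein, had an RPKM of 23.9, 29.4 and 26.0 at ED16 and 83.6, 75.4 and 38.0 at ED19 (log2 fold change -1.24, SE 0.23). ED19_6 was the lowest ED19 library, and the log2 fold change was -1.52 without it.

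SLU7 and CRNKL1, which act at the catalytic steps, had closely spaced libraries. The RPKM of CRNKL1 was 14.1, 15.4 and 14.2 in the ED16 libraries and 30.2, 29.5 and 31.1 in the ED19 libraries, and that of SLU7 was 26.9, 28.5 and 26.9 in the ED16 libraries and 62.2, 58.5 and 50.7 in the ED19 libraries. Both had a log2 fold change of -1.01. PRPF38B and PRPF6 were 1.75-fold and 1.57-fold higher at ED19. PRPF19, the ubiquitin ligase of the Prp19 complex, was the only member of this group that was higher at ED16. Its RPKM was 327, 317 and 321 in the ED16 libraries and 202, 199 and 215 in the ED19 libraries (log2 fold change 0.69, SE 0.15), and this became -0.04 after recentring.

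Of the 15 helicases 12 were higher at ED19, with a median of -0.86 on the log2 scale. DHX29, which helps the ribosome scan structured 5' leaders (ENSGALG00000014700), differed most of the 37 genes described here that were higher at ED19. Its RPKM was 0.659, 0.905 and 0.763 in the ED16 libraries and 13.1, 13.3 and 11.1 in the ED19 libraries, from 94 to 112 counts per library at ED16 and 1234 to 1778 at ED19. The log2 fold change was -3.96 (SE 0.18), or 15.5-fold higher at ED19, and -3.58 on the log2 scale with the length correction. The related DHX15, which takes the spliceosome apart, was 1.81-fold higher at ED19, so that the ratio of DHX29 to DHX15 was 8.56 times higher at ED19.

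All 5 helicases of pre-mRNA splicing, a set put together after the values were seen, were higher at ED19 (log2 fold change -1.44 to -0.78). DDX46, which loads U2 on the branch site, had an RPKM of 44.4, 47.5 and 50.2 at ED16 and 128, 126 and 142 at ED19 (log2 fold change -1.44, SE 0.16). DDX5, a helicase of splicing and transcription, had an RPKM of 250, 297 and 307 at ED16 and 541, 480 and 544 at ED19 (log2 fold change -0.83, SE 0.19). It was the most abundant of the 63 genes at ED19 and ranked 8 at ED16. DHX35, DHX15 and DHX8, which act at and after catalysis, were 2.34-fold, 1.81-fold and 1.72-fold higher at ED19.

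The other helicases of translation and decay were DDX3X and DDX6. DDX3X, which acts in translation initiation, had an RPKM of 105, 130 and 148 at ED16 and 260, 281 and 229 at ED19 (log2 fold change -0.95, SE 0.19). DDX6, an activator of decapping in P-bodies, had an RPKM of 14.3, 18.7 and 17.0 at ED16 and 53.1, 55.8 and 19.5 at ED19. ED19_6 was thus just above the highest ED16 library, and the log2 fold change of -1.28 (SE 0.31) was -1.64 without that library.

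Of the 5 helicases of ribosome assembly and the nucleolus, also grouped after the values were seen, 4 were higher at ED19. DDX24 averaged 18.5 ± 2.21 RPKM (SD, n = 3) at ED16 and 56.0 ± 3.14 at ED19, with no ED16 library near ED19 (log2 fold change -1.56, SE 0.16), and DDX55, DDX10 and DDX52 were 2.13-fold, 1.66-fold and 1.64-fold higher at ED19. DDX54 was higher at ED16, with an RPKM of 114, 101 and 113 at ED16 and 53.2, 49.7 and 52.3 at ED19 (log2 fold change 1.13, SE 0.15). The remaining helicases were scarce. DHX58 (LGP2), a sensor of viral RNA, had counts of 227, 184 and 96 at ED16 and 86, 75 and 62 at ED19. DDX4, the chicken homolog of the germ cell helicase Vasa, had counts of 15, 21 and 12 at ED16 and 2, 7 and 2 at ED19. The ratio of DDX4 was 4.22, with a 95% exact interval of 2.16 to 9.0 that covers counting error only, and its fitted log2 fold change moved from 2.04 to 2.86 without replicate 5.

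The 7 RBM proteins, named for an RNA-binding motif rather than a shared role, split into 4 higher at ED19 and 3 at ED16. RBM25, which controls the choice of alternative 5' splice sites, had an RPKM of 27.5, 31.0 and 32.5 at ED16 and 71.8, 61.7 and 91.3 at ED19 (log2 fold change -1.28, SE 0.21). RBM33 had an RPKM of 7.16, 10.6 and 11.3 at ED16 and 29.7, 32.8 and 11.5 at ED19 (log2 fold change -1.27, SE 0.33). As for DDX6, its ED19_6 library lay just above ED16, and the log2 fold change was -1.62 without it. RBM26 and RBM12B were 2.40-fold and 1.94-fold higher at ED19.

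RBM14, a paraspeckle protein and transcriptional coactivator, had an RPKM of 71.7, 52.7 and 57.4 at ED16 and 23.9, 20.7 and 15.7 at ED19 (log2 fold change 1.65, SE 0.18). RBM41 had an RPKM of 13.9, 12.9 and 11.3 at ED16 and 6.35, 6.90 and 9.39 at ED19 (log2 fold change 0.78, SE 0.23). RBM47, known from epithelia, had counts of 143, 117 and 74 at ED16 and 23, 18 and 12 at ED19 (log2 fold change 2.60, SE 0.34). The 11 epithelial markers found by symbol, of 13 listed, were all higher at ED16, and their summed RPKM was 345, 220 and 157 in ED16_1, ED16_2 and ED16_3 and 6.10 to 7.87 at ED19. RBM47 and these markers were in the same order in the ED16 libraries. The erythroid, fibroblast, smooth muscle, kidney and neuronal marker sums had this order too, so it is not particular to epithelium. The B-cell, T-cell, granulocyte and macrophage, and endothelial sums did not have it. The part of epithelial RNA in the level of RBM47 was not tested.

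The CELF, MBNL and ELAVL proteins, which set alternative splicing and mRNA stability in a cell type-specific way, are given as a widely expressed and a neuronal set. The sets were put together after the values were seen. All 6 widely expressed genes were higher at ED19. CELF1, which binds GU-rich elements and speeds mRNA decay, had an RPKM of 3.15, 3.43 and 4.34 at ED16 and 15.9, 16.1 and 10.6 at ED19 (log2 fold change -1.90, SE 0.19). Its paralog CELF2, known for splicing control in lymphocytes, had an RPKM of 14.5, 17.0 and 17.1 at ED16 and 44.5, 47.1 and 23.9 at ED19 (log2 fold change -1.18, SE 0.22). CELF2 was the more abundant of the pair per unit of length at both stages, and the ratio of CELF1 to CELF2 was 0.225 ± 0.0271 at ED16 and 0.381 ± 0.0543 at ED19 (SD, n = 3). CELF1 is 4519 bases long and CELF2 1491, and with the length correction their log2 fold changes were -1.50 and -1.33.

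The 3 muscleblind-like genes were higher at ED19 by similar amounts. MBNL1 had an RPKM of 109, 133 and 136 at ED16 and 260, 275 and 236 at ED19 (log2 fold change -0.98, SE 0.17). MBNL2 was far scarcer, with an RPKM of 1.26, 1.29 and 1.5 at ED16 and 3.50, 2.64 and 3.47 at ED19 (log2 fold change -1.20, SE 0.22). MBNL3 had an RPKM of 41.2, 46.7 and 52.5 at ED16 and 78.1, 81.5 and 90.2 at ED19 (log2 fold change -0.79, SE 0.19). The order MBNL1, MBNL3, MBNL2 held in every library, and the ratios of MBNL1 to MBNL2 and to MBNL3 overlapped between the stages. ELAVL1 (HuR), which stabilizes mRNAs with AU-rich elements, had an RPKM of 56.0, 59.9 and 58.1 at ED16 and 124, 126 and 98.6 at ED19 (log2 fold change -0.95, SE 0.13).

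The 5 CELF and ELAVL paralogs known from neurons were higher at ED16 and scarce at both stages. They were put together after their values were seen, and PTBP2, also best known from neurons, was higher at ED19 (log2 fold change -1.21, SE 0.14). ELAVL4 (HuD), a neuronal paralog of ELAVL1, had counts of 95, 63 and 81 at ED16 and 1, 0 and 0 at ED19, so its ratio of 231 had a 95% exact interval of 41.0 to 9158 for counting error. CELF3 had counts of 116, 94 and 56 at ED16 and 10, 10 and 0 at ED19 (ratio 12.9, 95% exact interval 8.15 to 21.4 for counting error). CELF4 had counts of 10, 11 and 11 at ED16 and was at 0 in all ED19 libraries. Against a floor of 3 counts per ED19 library its level at ED16 was at least 3.38-fold higher. CELF5 had counts of 30, 33 and 16 at ED16 and 9, 6 and 10 at ED19. ELAVL2 had counts of 8, 13 and 8 at ED16 and 1, 0 and 0 at ED19 (ratio 28.0, 95% exact interval 4.65 to 1144 for counting error). CELF4 and ELAVL2 had too few counts to be tested.

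Neuronal markers are given beside these genes. Both sets hold only genes that the study called, and the 5 genes were grouped after their values were seen, so a shared direction carries no test. Of 10 listed neuronal markers, 7 were found by symbol (among them TUBB3, NEFM, SCG2, SNAP25, GAP43 and STMN2) and all 7 were higher at ED16. Their summed RPKM was 89.1, 62.4 and 48.2 in ED16_1, ED16_2 and ED16_3 and 2.58 to 5.12 at ED19. CELF3 was in the same order as this sum in the ED16 libraries, while ELAVL4, CELF4, CELF5 and ELAVL2 were not. The epithelial, erythroid, fibroblast, smooth muscle and kidney sums also had this order, so it is not particular to neurons. The part of neuronal RNA in the level of these 5 genes was not tested.

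**Figure D3:**
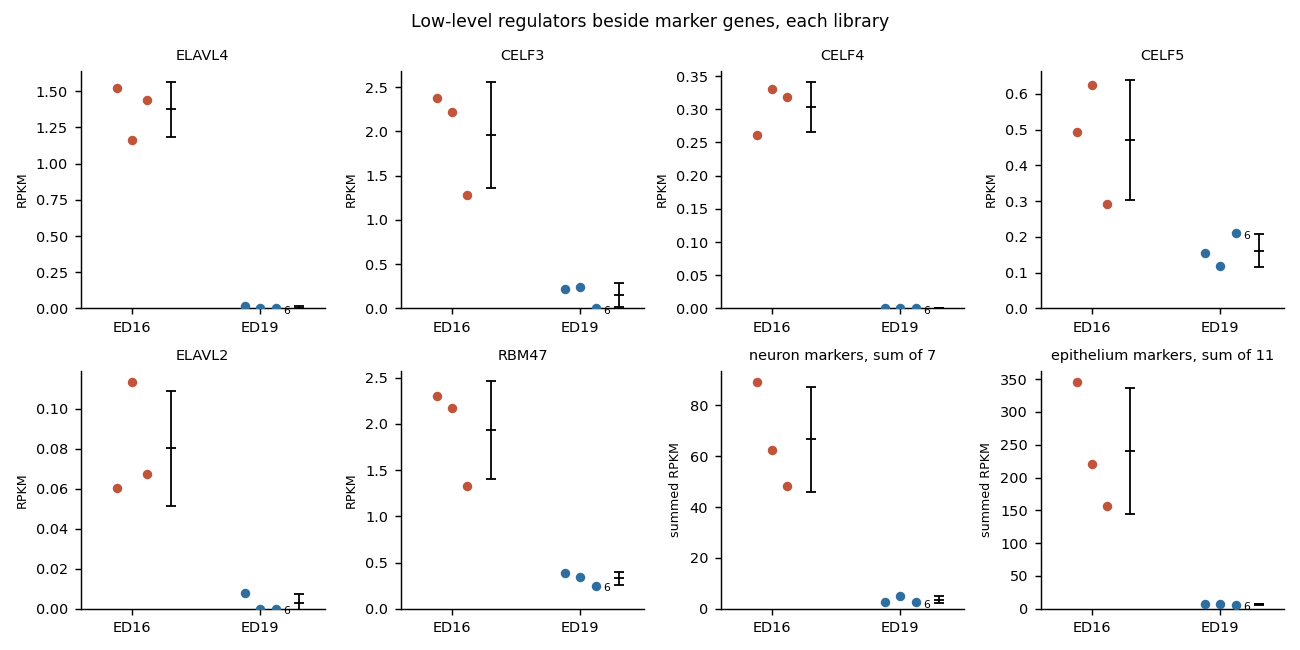
RPKM of 6 regulators that were scarce in these libraries, and the summed RPKM of 7 neuronal and 11 epithelial marker genes (y axes from 0; points, libraries; black mark and bar, mean ± SD of 3; 6 marks ED19_6). All 6 regulators and both sums are higher in every ED16 library, and CELF4 is at 0 in every ED19 library.

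By level, the 63 genes together took a larger share of the counts at ED19. The share was 0.881%, 0.924% and 1.04% of the library's counts at ED16 and 1.28%, 1.27% and 1.2% at ED19. The helicases contributed most, with 0.218 ± 0.0214% at ED16 and 0.400 ± 0.0133% at ED19 (SD, n = 3). The snRNP and LSM genes went the other way, from 0.145 ± 0.0176% at ED16 to 0.0904 ± 0.0141% at ED19. The summed share of the 4 hnRNP and PTB genes was 0.145 ± 0.0295% at ED16 and 0.106 ± 0.00827% at ED19. HNRNPA0 alone held most of their ED16 counts (26621 of 44692, 21770 of 38368 and 38822 of 55914). The sum thus follows HNRNPA0 and gives no direction of the group, of which 2 genes were higher at each stage. The share of SF3A2, SF3B1 and SF3B4 together averaged 0.0962 ± 0.00148% at ED16 and 0.0859 ± 0.0162% at ED19, and the values of the stages overlapped. Per unit of length, SNRPG, SRSF2, SNRPE and SNRPF held the first 4 ranks at ED16, and DDX5, SRSF1, SRSF2 and MBNL1 at ED19. The median coefficient of variation among the libraries of a stage was 11.7% at ED16 and 13.9% at ED19 for the 63 genes, against 13.4% and 23.4% for all tested genes. The choice of called genes favours a small spread. Their median RPKM was also higher, at 29.8 (ED16) and 55.7 (ED19) against 6.29 and 7.78 for all tested genes.

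Gene length moved with the direction of the difference. The study reports a lower average RNA integrity score at ED16 than at ED19. It also reports a higher GC content of the reads and a smaller share of mapped reads at ED16. These go with the stage and cannot be told apart from it here, and their part in the length trend was not tested. The median length of the genes higher at ED16 was 1394.5 bases and that of the genes higher at ED19 was 3392 bases. Under 1500 bases, 14 of 17 genes were higher at ED16 (82.4%), against 67.7% of all tested genes of that length. At 3000 bases or more, 21 of 22 genes were higher at ED19 (95.5%), against 62.4% of all tested genes of that length, and the exception was ELAVL2. From 1500 bases to below 3000, 13 of 24 were higher at ED19 (54.2%, against 52.4%). The values over all tested genes in this paragraph include genes that were not called, so they are not like for like. Of all genes called under 1500 bases, 2274 were higher at ED16 and 689 at ED19. At 3000 bases or more these counts were 1110 and 2020, and in between 1569 and 1578. The Pearson correlation of log2 fold change with log2 length was -0.53 over the 61 genes and -0.16 over all tested genes, and Spearman's rho was -0.59 and -0.27. Genes share their 6 libraries and are not independent, so no p-value is attached.

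A loess correction of each library for length left 37 genes higher at ED19 and 24 at ED16. It moved the median of the 61 genes to -0.53, with the median of all tested genes at 0.05, and 53 of the 61 still passed edgeR's threshold. The 8 that did not were DDX10, LSM10, LSM6, MBNL3, PRPF6, SNRNP27, SNRPF and SRSF2. With this correction the median of the snRNP and LSM genes was 0.53, against 1.08 without it, and SNRPG was at 1.75. The helicases had a median of -0.57, against -0.86. When the correction also recentred each library, the median of all genes moved to -0.39 and 5 genes changed direction (LSM6, PRPF19, SNRNP27, SNRPF and SRSF2). Relative to the median of all genes, that of the 61 was -0.58 with either correction, so these changes of side go with the moved zero. After recentring 51 of the 61 passed the threshold, and besides these 5 the genes CELF5, LSM10, RBM41, SNRNP40 and SNRPE did not.

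**Figure D4:**
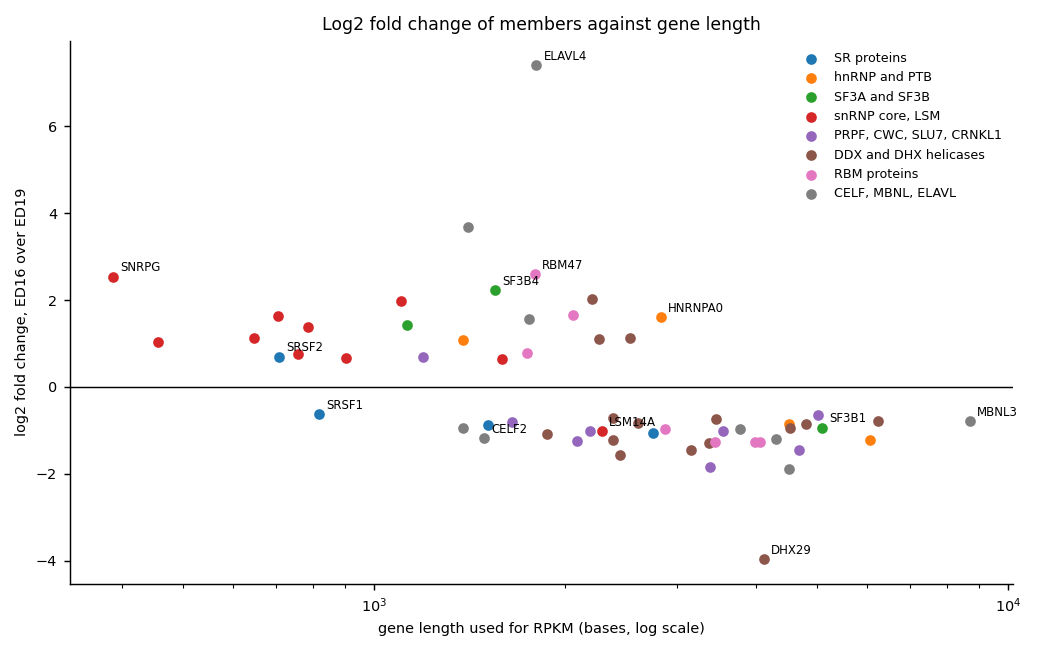
Log2 fold change, ED16 over ED19, of 60 of the 61 tested genes (y axis) against the gene length used for RPKM (x axis, bases, log scale), coloured by role group. No gene of 3000 bases or more lies above 0, and of the 16 tested genes under 1500 bases 13 do. Of these 13, LSM6, SNRPF, SNRNP27, SRSF2 and PRPF19 were below 0 after recentring, as was the median of all tested genes.

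Library ED19_6 differed from the other ED19 libraries, in all tested genes more than in these. The choice of called genes favours genes whose libraries of a stage lie close together, so this contrast cannot be read as a trait of these genes. The median absolute difference of ED19_6 from the mean of ED19_4 and ED19_5 was 0.35 on the log2 CPM scale over the 63 genes and 0.47 over all tested genes, whereas ED19_4 and ED19_5 differed by 0.10 and 0.14. The signed median was 0.08 over the 63 genes and -0.03 over all tested genes. The snRNP and LSM genes stood out among the role groups, since all 10 were higher in ED19_6 than in both other libraries, with a median difference of 0.85. The largest difference among them was that of SNRPF, at 1.2. Such a rise was not particular to them. Of the 40 further splicing genes described below, PPIL1 (1.17) and BCAS2 (0.76) had differences of this size, while the median over the 40 was 0.14. In the other roles, the genes lower in ED19_6 included CELF3 (-2.51, with 0 counts in ED19_6), DDX6 (-1.26), RBM33 (-1.23), PRPF39 (-0.85) and CELF2 (-0.72). Those higher included RBM41 (0.72), CELF5 (0.69) and RBM25 (0.67). The summed B-cell markers were also lower in ED19_6, at 347 RPKM against 495 and 511, and the summed T-cell markers were higher, at 230 against 154 and 138. CD3D alone, a gene of 794 bases, was at 205 RPKM against 126 and 115, and no other T-cell marker rose by a comparable amount. The part of B-cell or T-cell RNA in these differences was not tested. Under 1500 bases the median difference was 0.21 over all tested genes and 0.31 over the genes described here. Without ED19_6 no tested gene of the 63 changed direction, and the median of the snRNP and LSM genes was 1.43 on the log2 scale.

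**Figure D5:**
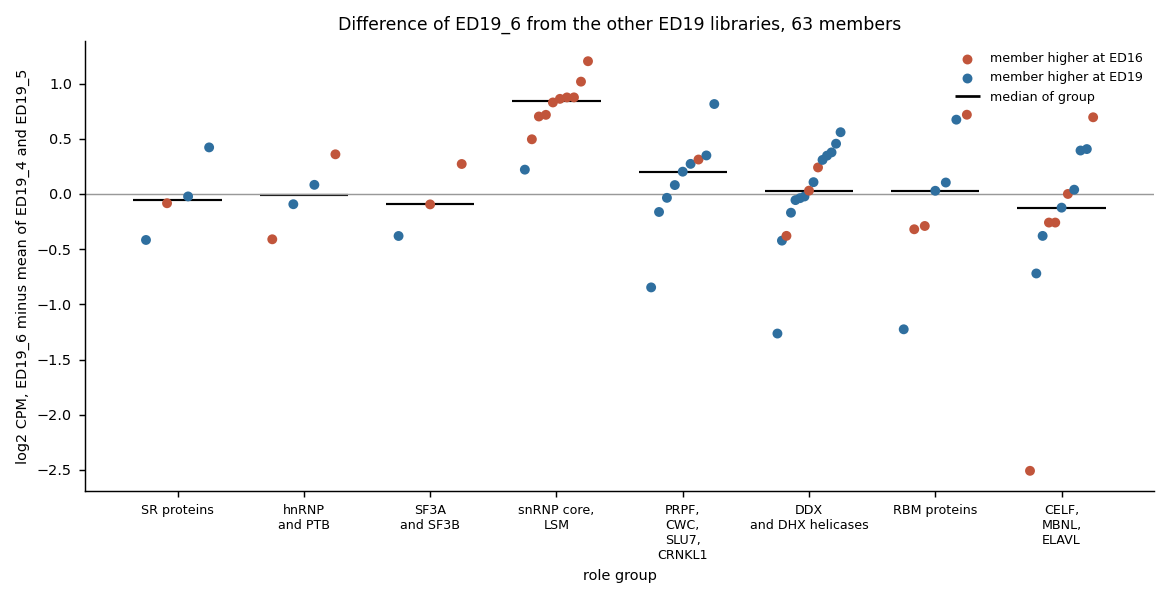
Difference in log2 CPM of library ED19_6 from the mean of ED19_4 and ED19_5 (y axis) for the 63 genes by role group (points, genes, red where higher at ED16 and blue where higher at ED19; black lines, medians). All 10 snRNP and LSM genes lie above 0 with a median of 0.85, and the other groups have medians from -0.12 to 0.20. ED19_6 has no replicate of its own, so there is no error on these differences. The colours of LSM6, SNRPF, SNRNP27, SRSF2 and PRPF19 turn to blue after recentring, which moved the median of all tested genes below 0.

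The protein domains given in the deposited table describe the same genes and values, since many of the symbols stand for a domain, so they are no separate evidence. Of the 63 genes, 22 had an RNA recognition motif, and these were split evenly, 11 higher at each stage. Of 7 with an LSM domain 6 were higher at ED16, and all 3 with HAT repeats (PRPF39, PRPF6 and CRNKL1) and all 4 with a CCCH zinc finger (MBNL1, MBNL2, MBNL3 and RBM26) were higher at ED19. A DEAD/DEAH box helicase domain was given for 14, of which 11 were higher at ED19. Other genes of the deposited table with these domains were called by the study on the same libraries, so they are no independent sample. Among them, 17 of 22 with a DEAD/DEAH box domain were higher at ED19, 4 of 5 with an LSM domain were higher at ED16, and 28 of 46 with an RNA recognition motif were higher at ED16. The median log2 fold change of genes with an RNA recognition motif was -0.74 over the 20 of the 22 genes described here that were tested. Over the 42 tested of the 46 others it was 1.06. CELF4 and ELAVL2, both higher at ED16, were not tested and are missing from the first median. That set is split between the stages with no value near 0, so its median hangs on a few genes and the 2 medians are not compared. Both genes described here with WD40 repeats, SNRNP40 and PRPF19, were higher at ED16 (PRPF19 was not after recentring), while 90 of 129 others with WD40 repeats were higher at ED19.

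Further genes of the splicing pathway were taken from a list of 112 symbols outside these families. Symbols exist for called genes only, and not for all of these, and 40 of the 112 were found. Of these 26 were higher at ED19 and 14 at ED16, and all 39 that were tested passed edgeR's threshold, against 66.4% of all tested genes, a count that the choice by symbol sets. The median over the 39 was -0.81 on the log2 scale, and with recentring only 4 were called higher at ED16, against 13. THOC2, of the complex that couples transcription to mRNA export, had an RPKM of 19.7, 23.3 and 21.0 at ED16 and 91.3, 86.5 and 91.5 at ED19 (log2 fold change -2.03, SE 0.15). SRPK2, a kinase that phosphorylates SR proteins, had an RPKM of 8.44, 9.40 and 8.96 at ED16 and 26.4, 25.0 and 30.4 at ED19 (log2 fold change -1.57, SE 0.17). PPIL1, a cyclophilin of the spliceosome, had a log2 fold change of 1.13 (SE 0.35).

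Among these further genes, tissue-restricted splicing regulators were again scarce and higher at ED16. They were singled out after their values were seen. NOVA1, known from neurons, had counts of 30, 43 and 21 at ED16 and 1 in each ED19 library, and RBFOX3, a neuronal marker itself, had counts of 30, 51 and 33 at ED16 and 4, 9 and 6 at ED19. ESRP2, known from epithelia, had counts of 222, 156 and 126 at ED16 and 29, 46 and 23 at ED19.

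The smallest differences among the 61 genes were those of SRSF1, SNRNP40 and PRPF6, with log2 fold changes of -0.63, 0.64 and -0.65. The choice was by a call and not by a size, and the differences that were smallest against their SE were those of LSM6 (0.77, SE 0.29), SNRNP27 (0.67, SE 0.23) and SNRPF (1.04, SE 0.34). In none of these did ED16 and ED19 libraries overlap. Genes just outside the limit have no symbol in the files and were not analysed here.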

How the data were processed

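The submitters' processing notes name CASAVA 1.8, TopHat2 2.0.12, HTSeq, DESeq 1.10.1 and the galGal4 build, and the study's methods state that reads were aligned with TopHat and counted per gene with HTSeq. The authors deposited raw counts per gene for 6 libraries and RPKM computed from these counts, which were checked to give 1 length per gene in all 17458 genes with counts (within 0.01 bases). The authors also deposited a table of the genes they called with DESeq, with fold changes and p-values. Only its symbols and domain descriptions were used. The library kit does not mark strand, so overlapping antisense genes cannot be told apart, and how reads shared between paralogs were treated is not given in the sources used here.

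Counts were fitted with edgeR 4.0.16 in R 4.3.3 (filterByExpr, TMM, quasi-likelihood F test, Benjamini-Hochberg, threshold 0.05) over 13923 genes, and the fit was tested on simulated data. SE is the log2 fold change divided by the square root of F. Log2 CPM used a prior count of 2. Each library is a separate pool of bursas per the labels, so errors measure the spread between pools. Intervals are exact (scipy 1.17.1), from summed counts. Alternatives were upper-quartile and median-of-ratios scaling, other filters, a length correction, DESeq2 1.42.0, log2(RPKM + 1) and log2(RPKM + 0.1), and leaving out each library. Recentring was added after the data were seen. The genes and lists were chosen with earlier results of these data known. The lists of further splicing genes and markers, and the rule for named genes (in each role group the 2 largest log2 fold changes in each direction with a mean log2 CPM of at least 3 and no overlap, the 5 highest RPKM, paralog sets, genes with at most 3 counts at a stage and the 3 smallest changes) were set with those results known. Genes named beyond this rule, and the finer sets of helicases, snRNP proteins and regulators, were chosen after their values were seen. The further splicing genes were planned as a test, which was not used because only called genes carry symbols. Sequences of these genes were not used here, and a few genes that are counted are not reported here by name.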

Additional observations from a re-analysis of the deposited data

How the results depend on the processing

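The number of genes higher at ED19 was 37 under every setting, except 42 with the length correction that also recentred the libraries. Their median log2 fold change was -0.81, and moved to -0.60 with upper-quartile scaling, -0.53 with the length correction and -0.97 with recentring, while that of all genes was 0.05, 0.26, 0.05 and -0.39. Relative to all genes it was -0.86 with TMM and with upper-quartile scaling, and -0.58 with either length correction. All genes include those not called, so these gaps are not like for like. Leaving out each library gave medians from -0.87 to -0.75. Without 1 library, 56 to 62 of the 61 or 62 genes tested passed edgeR's threshold. LSM6 missed it without any 1 of replicates 1 to 5, SNRNP27 and SNRPF without 1, 3, 4 or 5, RBM41 without 1, 4 or 5, SNRNP40 without 4 or 5, CELF5 without 2 or 5, DHX58 without 1 or 2, DDX4 without 2 or 4 and DDX10 without 1. With recentring SRSF2 (-0.35), SNRPF (-0.17) and PRPF19 (-0.043) reversed. Without 1 library the largest moves were in DDX4 without replicate 5 (2.86) and ELAVL4 without replicate 4 (9.24, from 7.40), genes with few counts at ED19.

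Of the further splicing genes, 39 were called, 13 higher at ED16 and 26 at ED19. Requiring 2-fold left 23, of which 14 were higher at ED19, and recentring left 4 higher at ED16. Without the 10 genes with most counts the share of counts was 1.04% at ED16 and 1.33% at ED19. The Pearson correlation with length was -0.37 with the length correction, -0.36 with recentring and -0.65 with at least 10 counts in every library, and Spearman's rho -0.38 with either correction. Leaving out each library gave -0.56 to -0.49 and -0.61 to -0.58. A correction for GC content was not run, since it needs sequences of the genes. No paired analysis was possible because the stages share no replicate number.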
